A study of Mus musculus with 20 samples.

Results

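Expression of 10 genes for NADPH oxidase subunits and antioxidant enzymes was followed in mouse abdominal aorta: Cyba, Cybb, Ncf1, Nox4, Sod1, Sod2, Sod3, Cat, Gpx1 and Gpx3. The genes were chosen by symbol and function, with earlier results of these data known. All 10 were listed and were among the 12645 genes tested. NADPH oxidases pass electrons from NADPH across a membrane to oxygen and so make superoxide or hydrogen peroxide. Superoxide dismutases turn superoxide into hydrogen peroxide, and catalase and glutathione peroxidases break hydrogen peroxide down to water. In arteries these oxidants act as signals downstream of angiotensin II (Ang II), the peptide hormone that constricts vessels and raises blood pressure, and superoxide also consumes the nitric oxide that relaxes them.

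Of the 20 libraries of the series, the 15 used here form 3 groups of 5: mice labelled KO infused with Ang II (KO AngII), wild-type mice infused with Ang II (WT AngII) and wild-type mice infused with saline (WT saline). Ang II was given at 500 ng per kg per min. The labels give neither the allele of the KO, the strain, the sex, the age nor the length of infusion, and DAPK1, a kinase activated by calmodulin, is named in the title of the series. The libraries are KOAng_II402, KOAngII537, KOAngII560, KOAngII612 and KOAngII628 in KO AngII, WTAng_II519, WTAng_II536, WTAngII568, WTAngII580 and WTAngII581 in WT AngII, and WTNS_369, WTNS_373, WTNS_523, WTNS_547 and WTNS_550 in WT saline, and 5 values of a group follow that order. The labels do not say whether a library is 1 mouse or a pool, so p-values measure the spread between libraries, which may be partly technical. KO mice given saline are not analysed here, since 0 of the 19 transcripts of the 10 genes are listed for them. Values are FPKM, fragments mapped per kilobase and relative to the size of the library, added up per gene over its listed transcripts, so levels of different genes can be set side by side per length.

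Depth, as recovered from the steps in the values, was 70.1 to 73.5 megareads in KO AngII, 59.0 to 74.5 in WT AngII and 62.8 to 67.1 in WT saline. Dapk1 lay at 4.997 to 13.8 FPKM in KO AngII, 3.96 to 19.9 in WT AngII and 9.48 to 15.4 in WT saline, with overlapping ranges, so the KO label was not borne out by the level of this gene and no check of the deleted part was possible. Smooth muscle markers were abundant in every library, with 5692 to 14811 FPKM summed over 10 genes. Brown adipocyte markers ranged from 131 to 3195 FPKM over 10 genes. Intestinal markers summed to 36.1 to 76.4 FPKM in KO AngII, to 6.86 to 42.2 in WT AngII, where WTAngII580 held 42.2 and WTAngII581 held 36.2, and to 3.63 to 7.68 in WT saline. In WT saline, 8 of the 9 intestinal markers with values were at 0 in all 5 libraries. In bulk tissue, fewer cells of a type and less RNA per cell cannot be told apart.

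Some of these genes were read as transcripts that differ by a few bases at a join of exons. The sequences at those places are shown here because the values of Nox4 and Gpx1 below are split over them. All are GENCODE M21 transcripts on GRCm38, the build the labels call mm10, and all lie on the plus strand. Nox4-201, which codes for the oxidase, and Nox4-205, annotated as a target of nonsense-mediated decay, differ at the start of exon 3, where their acceptor sites lie 4 bases apart (87295784 and 87295788). Both lines span the join of exons 2 and 3, chr7:87247554-87295799. Capitals mark the 4 bases that only the first has, and in the second the stop codon that its frame meets within the first 12 bases of exon 3.
Nox4-201: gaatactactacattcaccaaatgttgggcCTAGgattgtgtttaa
Nox4-205: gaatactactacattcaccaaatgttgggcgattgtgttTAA
Apart from those bases the 2 transcripts are identical, so only reads over this join can tell them apart. At the start of exon 2, Gpx1-202 lacks 3 bases of Gpx1-201, in capitals in the first of the lines below, which span chr9:108339538-108339800. Gpx1-201 has 1072 bases and Gpx1-202 has 787, so these 2 transcripts also differ outside this join.
Gpx1-201: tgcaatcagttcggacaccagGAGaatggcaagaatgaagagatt
Gpx1-202: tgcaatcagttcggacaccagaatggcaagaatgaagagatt
The glutathione peroxidases of Gpx1 and Gpx3 carry selenocysteine in the active site, written in the RNA as a UGA codon that is read through. It is codon 47 of Gpx1-201 and codon 73 of Gpx3-201. The lines below span chr9:108339430-108339474 and chr11:54907235-54907279, with the codon in capitals.
Gpx1-201: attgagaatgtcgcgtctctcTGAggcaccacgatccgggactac
Gpx3-201: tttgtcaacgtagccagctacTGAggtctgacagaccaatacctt
The annotated coding start of Gpx1-202 (108339481) lies after this codon, although the transcript holds its bases.

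None of the 10 genes passed an adjusted p of 0.05 in limma in any of the 3 comparisons. In KO AngII against WT AngII, 0 of the 10 passed, beside 0% of all tested genes, and 0 of the 10 had an unadjusted p under 0.05, beside 7.94% of all genes. In KO AngII against WT saline, 0 of the 10 passed, beside 0.103% of all genes, and 1 of the 10, Cybb, had an unadjusted p under 0.05, beside 8.37%. In WT AngII against WT saline, 0 of the 10 passed, beside 0%, and Cybb alone had an unadjusted p under 0.05, beside 4.88%. limma run without its trend and robust options also called 0 of the 10 in each comparison. The median difference of the 10 genes on the log2(FPKM + 1) scale was -0.0235 in KO AngII against WT AngII, -0.0565 in KO AngII against WT saline and 0.0496 in WT AngII against WT saline. Over all tested genes the same medians were -0.00756, 0.0159 and 0.0144. Each pair of comparisons shares a group of libraries, so their values are not independent of each other. Cybb in WT AngII against WT saline was the 1 case of 30 in which all libraries of a group lay above or below all of the other. Of all tested genes, 0.569% lay above and 0.546% below in this way in KO AngII against WT AngII, 0.854% and 0.973% in KO AngII against WT saline, and 0.672% and 0.324% in WT AngII against WT saline.

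**Figure D1:**
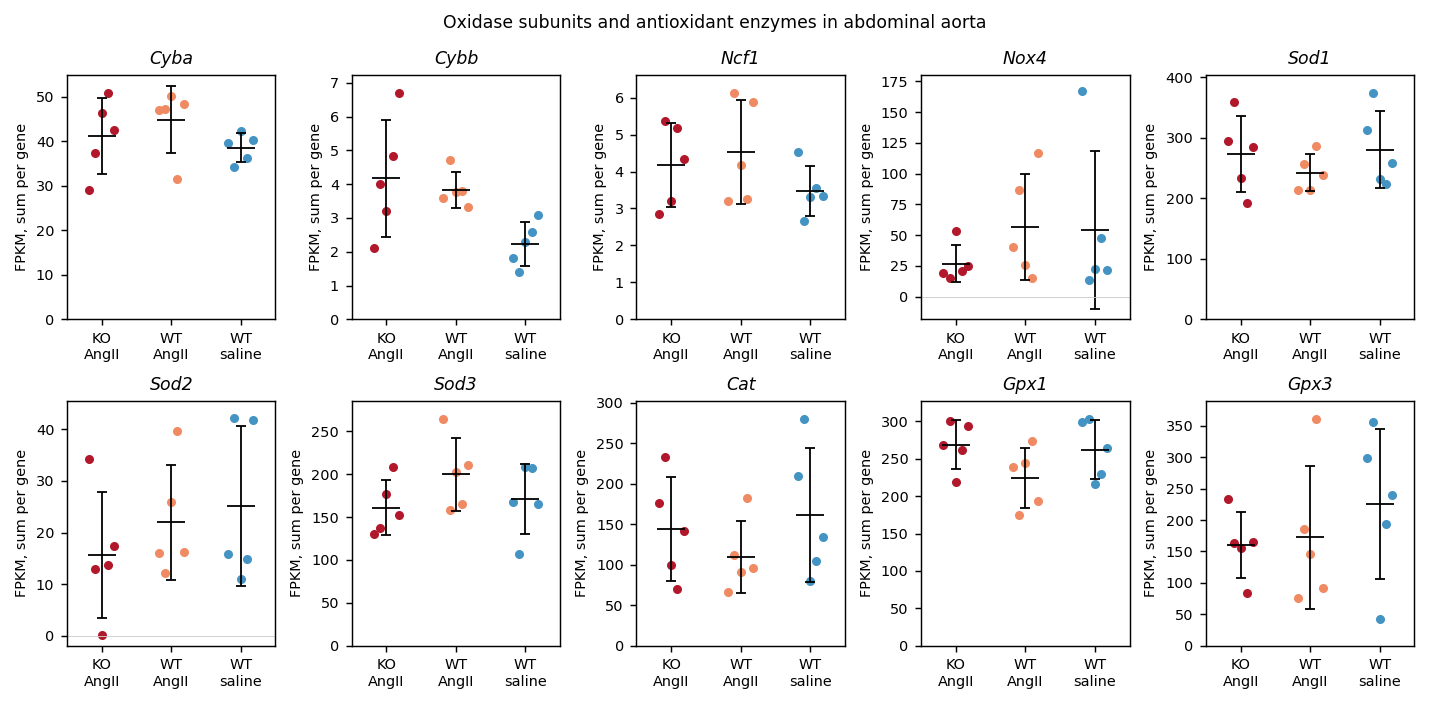
Summed FPKM of each of the 10 genes (y axis, linear, 1 panel per gene) in KO AngII, WT AngII and WT saline; each dot is 1 library, and the black bars are the mean and SD of 5 libraries. Cybb is the gene whose WT AngII libraries (3.33 to 4.72 FPKM) all lie above its WT saline libraries (1.39 to 3.08), while Sod2 has 1 KO AngII library at 0.209 and Nox4 has 1 WT saline library at 167.

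Among the oxidase genes, Cybb encodes the catalytic subunit of the phagocyte oxidase (chrX:9435252-9487771, minus strand). Its FPKM were 2.11, 4.01, 3.21, 4.84 and 6.71 in KO AngII. They were 3.58, 4.72, 3.78, 3.79 and 3.33 in WT AngII, and 1.82, 1.39, 2.28, 2.58 and 3.08 in WT saline. Every WT AngII library was above every WT saline library, a separation in this direction that 0.672% of all tested genes had. The KO AngII libraries overlapped with both other groups, since KOAng_II402 lay among the WT saline libraries and KOAngII628 was the highest of the 15. Cybb averaged 4.17 ± 1.74 FPKM in KO AngII, 3.84 ± 0.529 in WT AngII and 2.23 ± 0.658 in WT saline (SD, n = 5 each).

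On the log2(FPKM + 1) scale, the difference of Cybb in WT AngII against WT saline was 0.60 (SE 0.22, 95% interval 0.14 to 1.07), with a limma p of 0.0147 that came to 0.940 after adjustment over all genes. Against WT saline, the difference in KO AngII was 0.64 (SE 0.22, interval 0.17 to 1.10), with an unadjusted p of 0.0105 and an adjusted p of 0.420 in limma. Between KO AngII and WT AngII the difference was 0.04 (interval -0.43 to 0.50), and it turned to -0.12 without KOAngII628 and to -0.02 without WTAngII580 and WTAngII581. The difference in WT AngII against WT saline was between 0.50 and 0.69 when libraries were left out in turn. Of 12 macrophage markers, 11 had a positive difference in WT AngII against WT saline, beside 6648 of all 12645 tested genes, with a median of 0.56 and 0 called. An unadjusted limma p under 0.05 was found for 7 of the 12, beside 4.88% of all genes. For 3 of them, C1qc, Cd163 and Csf1r, every WT AngII library lay above every WT saline library, as for Cybb. The 12 markers summed to 290 to 558 FPKM in KO AngII, 383 to 528 in WT AngII and 262 to 366 in WT saline. Of the 12, 0 were at 0 throughout a group, and their part in the Cybb result was not tested. Neutrophils also carry this oxidase, and KOAngII628, the library with the most Cybb, had a mean log2(FPKM + 1) of 4.50 over the 6 neutrophil markers with values, while the other 14 libraries had 0.37 to 2.43. Those 6 of the 10 listed markers summed to 4.46 to 234 FPKM in KO AngII, 2.38 to 30.4 in WT AngII and 2.61 to 48.0 in WT saline, with 0 at 0 throughout a group, and their part was not tested either.

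Cyba encodes the membrane partner that stabilises the catalytic subunits (chr8:122424776-122432930, minus strand), and Ncf1 an organizer that carries the cytosolic subunits to the membrane (chr5:134220053-134229625, minus strand). Cyba averaged 41.2 ± 8.45 FPKM in KO AngII, 44.9 ± 7.53 in WT AngII and 38.6 ± 3.23 in WT saline. WTAngII580 was the lowest of its group at 31.6, while the other WT AngII libraries lay between 47.0 and 50.1 and so above all WT saline libraries (34.3 to 42.3). Without WTAngII580 the difference between WT AngII and WT saline was 0.32, against 0.20 with it, and the adjusted p in limma stayed at 0.556 or more over all libraries left out in turn. Ncf1 averaged 4.18 ± 1.14 FPKM in KO AngII, 4.53 ± 1.41 in WT AngII and 3.48 ± 0.671 in WT saline, with 455 or more reads in each library. The log2 differences of Ncf1 were -0.08 in KO AngII against WT AngII and 0.28 in WT AngII against WT saline, and the groups overlapped in both.

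Nox4 encodes a catalytic subunit of smooth muscle, endothelium and kidney that makes mainly hydrogen peroxide and needs no cytosolic activator (chr7:87246096-87398710, plus strand). Its FPKM were 18.9, 15.6, 53.0, 21.1 and 25.0 in KO AngII. They were 40.4, 86.6, 25.5, 15.5 and 117 in WT AngII, and 167, 13.8, 22.6, 47.4 and 22.0 in WT saline. Each group held libraries below 16 and above 40, and the highest of all 15 was 12.1 times the lowest. The difference was -0.84 in KO AngII against WT AngII (SE 0.65, interval -2.22 to 0.54), -0.53 in KO AngII against WT saline (interval -1.92 to 0.85) and 0.30 in WT AngII against WT saline (interval -1.08 to 1.69). The adjusted p in limma were 0.693, 0.883 and 0.963. Without WTNS_369, the differences from WT saline were 0.02 in KO AngII and 0.85 in WT AngII.

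The split of Nox4 over its transcripts also varied from library to library. The protein-coding Nox4-201 stood at 3.66, 2.16, 0.363, 3.52 and 1.23 FPKM in KO AngII. It stood at 11.3, 43.5, 1.74, 1.66 and 56.9 FPKM in WT AngII, and at 83.8, 0.848, 1.99, 17.0 and 1.59 in WT saline. The libraries with a Nox4 sum above 40 held 28.0% to 50.2% of it in Nox4-201, with the exception of KOAngII560, where the protein-coding Nox4-202 took 22.98 FPKM, or 43.4% of the sum. Nox4-202, which has the same exon 3 start as Nox4-201, is listed for the KO AngII libraries only, and in the other 4 of them it was at 0.0585 to 0.283 FPKM. With transcripts listed for all 15 libraries alone, the Nox4 difference was -1.01 in KO AngII against WT AngII, with an adjusted p of 0.681 in limma.

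The share of Nox4 in Nox4-205, the form with the early stop codon printed above, was 31.9% to 74.9% in KO AngII, 38.4% to 78.4% in WT AngII and 34.5% to 79.2% in WT saline. The ratio of Nox4-201 to Nox4-205 was 0.964 to 1.04 in WTAng_II536, WTAngII581, WTNS_369 and WTNS_547. In the other 11 libraries it was 0.0211 to 0.414, with all 5 KO AngII libraries at 0.278 or less. WTAngII568, WTAngII580, WTNS_373, WTNS_523 and WTNS_550 were at 0.278 or less too. The protein-coding Nox4-202 is not in this ratio, and in KOAngII560 it stood at 22.98 FPKM beside 17.2 of Nox4-205. Nox4-207, the other listed form annotated for decay, exceeded 7 FPKM in KOAngII560, KOAngII628, WTAngII568, WTNS_523, WTNS_547 and WTNS_550, and was at 0.0433 to 0.290 FPKM in the other 9.

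**Figure D2:**
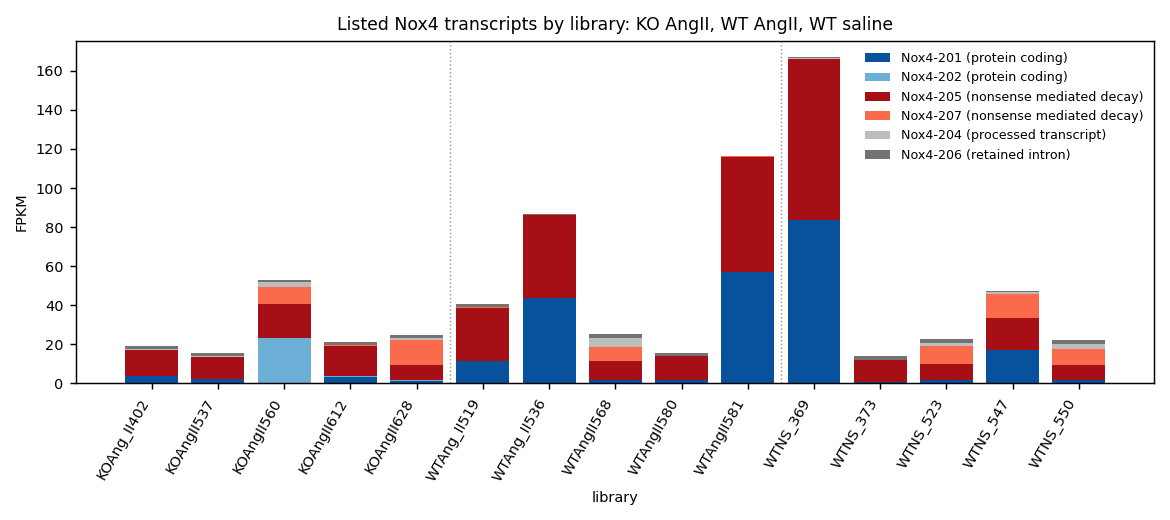
FPKM of the listed Nox4 transcripts (y axis, linear, stacked) in each library of KO AngII, WT AngII and WT saline, from left to right, coloured by transcript with its annotated type. The tallest bars, WTAngII581, WTAng_II536 and WTNS_369, consist of near equal parts of Nox4-201 and Nox4-205, and Nox4-202 is visible in KOAngII560 only.

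Among the dismutases, Sod1 encodes the copper-zinc enzyme of the cytosol (chr16:90220754-90226329, plus strand). It had the highest mean of the 10 genes in each group, 273 ± 63.1 FPKM in KO AngII, 242 ± 30.7 in WT AngII and 280 ± 63.4 in WT saline, and its groups overlapped in every comparison. The log2 difference was 0.15 in KO AngII against WT AngII (interval -0.24 to 0.54) and -0.19 in WT AngII against WT saline (interval -0.58 to 0.20).

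Sod2 encodes the manganese enzyme of the mitochondrial matrix (chr17:13006846-13040063, plus strand). Its FPKM were 34.3, 12.9, 0.209, 13.7 and 17.3 in KO AngII. They were 16.01, 12.1, 25.9, 39.6 and 16.2 in WT AngII, and 15.8, 42.1, 10.9, 14.9 and 41.9 in WT saline. KOAngII560 stood far below the other 14, at about 89 reads where the most was 17298, and each group held 1 or more libraries above 34. The difference was -0.94 in KO AngII against WT AngII (SE 0.72, interval -2.48 to 0.60), with an adjusted p of 0.692 in limma, and -0.15 without KOAngII560. Against WT saline it was -1.04 with that library and -0.25 without it. Only 1 annotated transcript of Sod2 is listed, and RNA that the deposited tables give to assembled transcripts with no gene name is not in any sum.

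Sod3 encodes the secreted copper-zinc enzyme that binds to the matrix of the vessel wall (chr5:52363791-52371418, plus strand). Its FPKM were 131, 137, 176, 208 and 152 in KO AngII. They were 264, 158, 202, 165 and 210 in WT AngII, and 167, 107, 208, 207 and 166 in WT saline. WTAng_II519 was the highest and WTNS_373 the lowest, and all groups overlapped. The log2 difference was -0.31 in KO AngII against WT AngII (SE 0.20, interval -0.74 to 0.12) and 0.24 in WT AngII against WT saline (interval -0.19 to 0.67), with adjusted p of 0.658 and 0.941 in limma. Single libraries moved these sizes: without WTNS_373 the difference in WT AngII against WT saline was 0.0803, and without WTAng_II519 it was 0.13, while that in KO AngII against WT AngII was then -0.20.

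Of the enzymes that remove hydrogen peroxide, Cat encodes catalase of the peroxisome (chr2:103453849-103485160, minus strand). Its FPKM were 176, 233, 99.2, 70.3 and 142 in KO AngII. They were 66.4, 112, 91.5, 182 and 95.4 in WT AngII, and 210, 280, 79.7, 104 and 134 in WT saline. All groups overlapped, and WTAng_II519 and WTNS_373, the ends of the Sod3 range, were here at the opposite ends. The difference was 0.35 in KO AngII against WT AngII (interval -0.47 to 1.17) and -0.49 in WT AngII against WT saline (interval -1.31 to 0.33), with adjusted p of 0.784 and 0.941 in limma. With libraries left out in turn, the first ranged from 0.15 without KOAngII537 to 0.58 without KOAngII612, and the second from -0.70 without WTNS_523 to -0.25 without WTNS_373.

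Gpx1 encodes the glutathione peroxidase of cytosol and mitochondria (chr9:108338903-108340343, plus strand). It averaged 269 ± 32.6 FPKM in KO AngII, 225 ± 40.2 in WT AngII and 262 ± 39.5 in WT saline. Its difference of 0.27 in KO AngII against WT AngII (interval -0.06 to 0.59) had the smallest p of the 10 genes in that comparison, 0.0983 in limma and 0.635 after adjustment. Gpx1-202, the shorter form shown above, was listed at 0 in KOAngII537, KOAngII560, WTAng_II536, WTAngII581 and WTNS_369. In the other 10 libraries it took 9.72% to 24.2% of the Gpx1 sum, so its listing at 0 occurred in each group. WTAng_II536, WTAngII581 and WTNS_369 were also among the 4 with near equal Nox4-201 and Nox4-205.

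Gpx3 encodes the secreted peroxidase of plasma (chr11:54902453-54910377, plus strand). It ranged from 84.3 to 234 FPKM in KO AngII, with a median of 163, from 76.7 to 361 in WT AngII, with a median of 146, and from 41.7 to 356 in WT saline, with a median of 239. The highest library was 8.66 times the lowest, and the interval of the difference between KO AngII and WT AngII ran from -1.10 to 1.20.

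**Figure D3:**
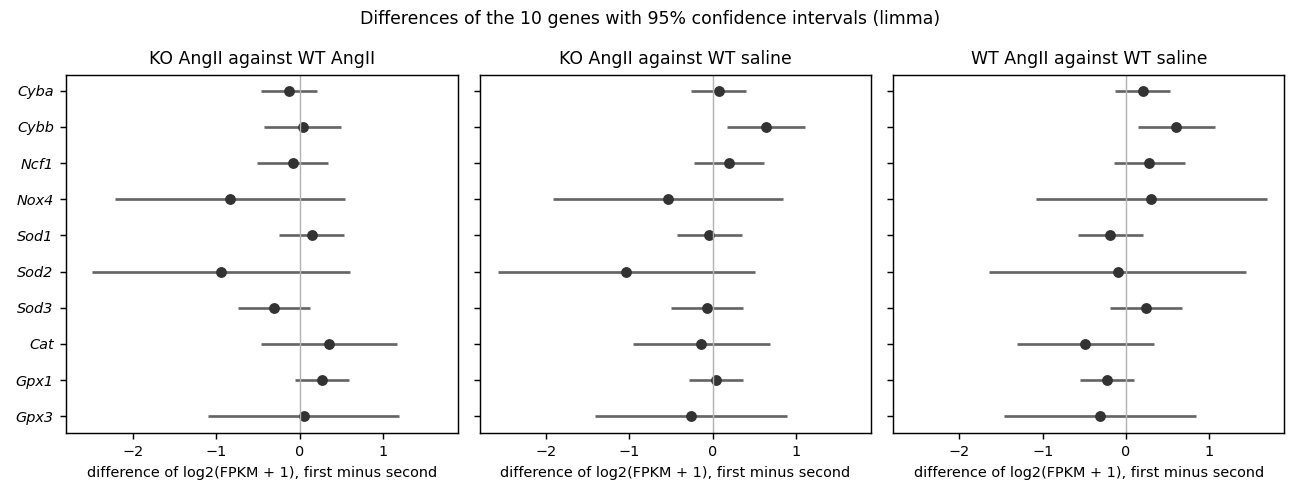
Difference of log2(FPKM + 1) (x axis, first group minus second) for each of the 10 genes (rows) in KO AngII against WT AngII, KO AngII against WT saline and WT AngII against WT saline; dots are limma estimates and lines 95% confidence intervals. The intervals of Cybb against WT saline (0.17 to 1.10 in KO AngII and 0.14 to 1.07 in WT AngII) lie above 0, and those of Nox4 and Sod2 are the widest.

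Per length, the order of the mean levels was Sod1, Gpx1, Sod3, Gpx3, Cat, Cyba, Nox4, Sod2, Ncf1 and Cybb in KO AngII. In WT AngII it differed in placing Nox4 above Cyba, and in WT saline in placing Gpx3 above Sod3 as well. Many neighbours in these orders overlapped in range. In KO AngII, the ranges of Gpx1 and Sod3 and of Cat and Cyba were apart, and in WT AngII and WT saline those of Sod2 and Ncf1 alone. The antioxidant enzymes other than Sod2 thus lay above the oxidase subunits in mean FPKM in each group, and the phagocyte subunits Ncf1 and Cybb lay lowest.

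Across the 15 libraries, several of the 10 genes moved with the marker levels of cell types in and around the vessel wall. Each of the 10 was set against the mean log2(FPKM + 1) of macrophage, smooth muscle and brown adipocyte markers, which made 30 relations, tested by permutation with Benjamini-Hochberg adjustment. By Pearson's r, 12 of the 30 passed an adjusted permutation p of 0.05, all of them also by Spearman's rho, by which 14 passed. Cat rose with the brown adipocyte markers (Pearson's r = 0.89, Spearman's rho = 0.87, adjusted permutation p = 6.0e-04 for r and 0.00105 for rho). Sod1 (r = 0.80, rho = 0.82, adjusted permutation p = 0.00168 for r and 0.00180 for rho) and Gpx3 (r = 0.78, rho = 0.88, adjusted permutation p = 0.00214 and 0.00105) did so too. Sod3 ran the other way, falling with the brown adipocyte markers (r = -0.86, rho = -0.82, adjusted permutation p = 6.0e-04 and 0.00180) and rising with the smooth muscle markers (r = 0.83, rho = 0.78, adjusted permutation p = 0.00168 and 0.00403). Cyba also fell with the brown adipocyte markers (r = -0.77, rho = -0.79, adjusted permutation p = 0.00315 and 0.00403). Cat (r = -0.81, adjusted permutation p = 0.00168) and Sod1 (r = -0.80, adjusted permutation p = 0.00180) fell with the smooth muscle markers. Gpx1 passed against both lists, with an r of 0.63 for brown adipocyte markers (adjusted permutation p = 0.0306) and -0.70 for smooth muscle markers (adjusted permutation p = 0.0118). The 2 libraries farthest from the median marker level were then left out, WTNS_373 and WTAng_II519 for brown adipocyte markers. Against those markers r was 0.85 for Cat, 0.76 for Sod1, 0.72 for Gpx3, 0.68 for Gpx1, -0.78 for Cyba and -0.76 for Sod3. Against smooth muscle markers, without WTNS_373 and KOAngII537, it was 0.70 for Sod3, -0.67 for Cat, -0.63 for Sod1 and -0.59 for Gpx1. White adipocyte markers were not set against the 10 genes. Their mean log2(FPKM + 1) was highest in WTNS_373 (7.98) and lowest in WTAng_II519 (6.02). Brown adipocyte markers (6.15 and 2.68) and Cat had their ends in the same libraries. Whether these relations are particular to brown adipocytes was therefore not tested.

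Most of these relations were also present within groups. For that test the deviations from the group means were permuted over all 15 libraries and not inside each group. The permutation p within groups may therefore be too small. As deviations from the group means, r against brown adipocyte markers was 0.87 for Cat, 0.78 for Sod1, 0.80 for Gpx3 and -0.86 for Sod3, and r of Sod3 against smooth muscle markers was 0.80, each with an adjusted permutation p of 0.00257 or less. Cyba against brown adipocyte markers (r = -0.73) and Cat and Sod1 against smooth muscle markers (r = -0.80 and -0.79) also passed within groups, as did Gpx1 against smooth muscle markers (r = -0.62, adjusted permutation p = 0.0335). Gpx1 against brown adipocyte markers did not (r = 0.56, adjusted permutation p = 0.0649). Sod2, which passed against neither list across all libraries, passed within groups against brown adipocyte markers (r = 0.64, adjusted permutation p = 0.0210) and smooth muscle markers (r = -0.62, adjusted permutation p = 0.0335). The 10 brown adipocyte markers summed to 349 to 2366 FPKM in KO AngII, 131 to 2462 in WT AngII and 561 to 3195 in WT saline. The 10 smooth muscle markers summed to 5692 to 10373 FPKM in KO AngII, 7115 to 14811 in WT AngII and 5829 to 13105.5 in WT saline, and 0 genes of either list were at 0 throughout a group. As medians over their genes, brown adipocyte markers differed by 0.99 in KO AngII against WT AngII and -1.06 in WT AngII against WT saline, with 0 of 10 called in either. Smooth muscle markers had median differences of -0.41 and 0.27 in the same comparisons, again with 0 of 10 called. With marker means of sympathetic neurons, skeletal muscle and brown adipocytes as covariates, the difference of Cat was -0.22 in KO AngII against WT AngII and 0.04 in WT AngII against WT saline, each of the opposite sign to the values above. The 7 skeletal muscle markers with values summed to 1.98 to 29.7 FPKM in KO AngII, 2.83 to 167 in WT AngII and 1.54 to 220.2 in WT saline.

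Cybb (r = 0.67, rho = 0.74, adjusted permutation p = 0.0189 and 0.00654) and Ncf1 (r = 0.73, rho = 0.61, adjusted permutation p = 0.00813 and 0.0366) rose with the macrophage markers. For Cybb, r was 0.46 without KOAngII612 and WTNS_373 and 0.41 as deviations from the group means, with an adjusted permutation p of 0.178, so the relation rests in part on those libraries and on the difference between groups. For Ncf1 the same values of r were 0.63 and 0.69. Nox4 had an r of 0.49 with the smooth muscle markers, with an adjusted permutation p of 0.0972, and a rho of 0.68, with an adjusted permutation p of 0.0162. Without KOAngII537 and WTNS_373 its r was 0.30, and as deviations from the group means r was 0.42 and rho 0.31, with adjusted permutation p of 0.165 and 0.316, so the call by rho was lost within groups.

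**Figure D4:**
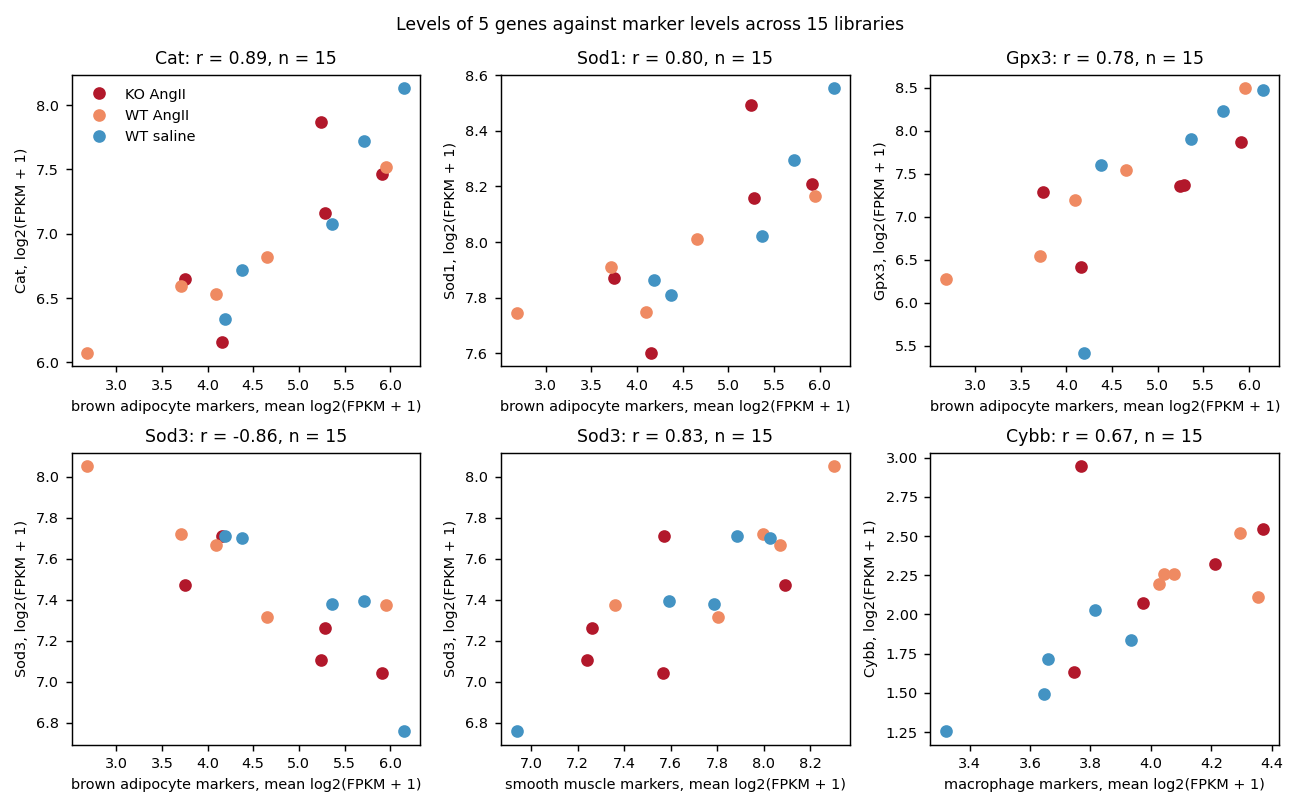
Level of 5 genes (y axis, log2(FPKM + 1)) against the mean log2(FPKM + 1) of a marker list (x axis) in 15 libraries, coloured by group, with Pearson's r above each panel. Cat, Sod1 and Gpx3 rise with the brown adipocyte markers (r = 0.89, 0.80 and 0.78), Sod3 falls with them (r = -0.86) and rises with smooth muscle markers (r = 0.83), and libraries of the 3 groups lie along the same trends.

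By Pearson's r of log2(FPKM + 1) over the same 15 libraries, given as a description over libraries that share these cell mixtures, the genes nearest to Cybb were Itgb2 (0.92), Lyz2 (0.91) and Laptm5 (0.82). Itgb2 encodes an integrin chain of leukocytes and Lyz2 the lysozyme of macrophages, which is in the macrophage list. Nearest to Sod3 were Igfbp7 (0.97), Bgn (0.96), which encodes the matrix proteoglycan biglycan, and Gramd3 (0.95). Nearest to Cat were Abhd15 (0.97), Cdo1 (0.97), a cysteine dioxygenase, and Hacd2 (0.97), and nearest to Sod1 were Tmbim6 (0.97), Ppp1r1a (0.96) and Cat itself (0.96). Gpx3 was nearest to Mavs (0.88), Mcur1 (0.86) and Nadk (0.86), and Gpx1 to Acad11 (0.89), Hpdl (0.89) and Mrpl24 (0.89). Sod2 was nearest to Apoo (0.89), Cmc1 (0.87) and Tmem135 (0.87), Ncf1 to Cd14 (0.85), a monocyte receptor part, Mcm4 (0.79) and Diexf (0.78), Cyba to Heyl (0.88), Cdc37 (0.88) and Rhog (0.87), and Nox4 to Zbtb16 (0.84), Med6 (0.83) and Phax (0.83).

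The wider redox lists held 51 further genes in 7 groups, of which 40 were tested. Ncf4 and Noxo1, at means of 0.820 and 0.788 FPKM, were below the filter, and Nox1, Nox3, Noxa1, Duox1, Duox2, Duoxa1, Duoxa2, Gpx2 and Slc7a11 had no value. In limma 0 of the 40 passed in each of the 3 comparisons, and 4, 3 and 2 had an unadjusted p under 0.05 in KO AngII against WT AngII, KO AngII against WT saline and WT AngII against WT saline, beside 7.94%, 8.37% and 4.88% of all tested genes, so these counts lie near the background. In KO AngII against WT AngII, 29 of the 40 had a positive difference and 11 a negative one. Of all 12645 tested genes, 6150 were positive there, and the medians were 0.20 for the 40 and -0.00756 for all. In KO AngII against WT saline, 32 were positive and 8 negative, beside 6660 positive over all genes, with medians of 0.12 and 0.0159. In WT AngII against WT saline, 19 were positive and 21 negative, beside 6648 positive over all genes, with medians of -0.03 and 0.0144.

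Among the other oxidase genes, Rac1, the small GTPase of the complex, had the highest mean (74.6 ± 35.9 FPKM in KO AngII, 65.3 ± 27.9 in WT AngII and 75.1 ± 11.8 in WT saline). Its leukocyte relative Rac2 averaged 3.40 ± 1.30 FPKM in KO AngII and 1.62 ± 0.442 in WT saline, a difference of 0.70 (SE 0.23) with a limma p of 0.00834 and an adjusted p of 0.385. Poldip2, a partner of the Nox4 enzyme, differed by 0.37 in KO AngII against WT AngII, with a limma p of 0.126.

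Of the peroxiredoxins and thioredoxins, 10 of 12 had a positive difference in KO AngII against WT AngII, beside 6150 of all 12645 tested genes. In KO AngII against WT saline 11 of 12 did, beside 6660, and in WT AngII against WT saline 2 of 12, beside 6648. In each comparison 0 passed. Txnip, which binds and inhibits thioredoxin, had the highest mean of that list, at 243 ± 78.6 FPKM in KO AngII, 255 ± 108 in WT AngII and 213 ± 26.8 in WT saline. Txn1, cytosolic thioredoxin, averaged 99.1 ± 17.7 FPKM in KO AngII, 79.4 ± 6.48 in WT AngII and 82.7 ± 2.85 in WT saline. Its difference in KO AngII against WT AngII was 0.30, with a limma p of 0.0199 and an adjusted p of 0.622. In KO AngII against WT saline the difference was 0.24, with a limma p of 0.0548. Prdx4, the peroxiredoxin of the endoplasmic reticulum, averaged 42.3 ± 10.3 FPKM in KO AngII and 55.7 ± 8.41 in WT AngII, a difference of -0.40, and its adjusted p in limma was 0.622. In WT AngII against WT saline (44.4 ± 4.45 FPKM) its difference was 0.31, with a limma p of 0.0608.

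Among targets of NRF2, the transcription factor of the oxidant response, Nqo1 encodes a quinone reductase. It averaged 7.10 ± 0.946 FPKM in KO AngII, 10.02 ± 1.70 in WT AngII and 7.51 ± 1.66 in WT saline. The difference was -0.44 in KO AngII against WT AngII and 0.38 in WT AngII against WT saline, with limma p of 0.0114 and 0.0237 and adjusted p of 0.616 and 0.941. Hmox1, haem oxygenase, averaged 13.8 ± 8.80 FPKM in KO AngII and 7.81 ± 2.29 in WT saline, with a limma p of 0.0466 and an adjusted p of 0.590. Nfe2l2, the gene of NRF2 itself, averaged 35.2 ± 4.72 FPKM in KO AngII, 33.9 ± 3.73 in WT AngII and 33.5 ± 5.44 in WT saline.

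Other possible sources of superoxide had the largest list median in KO AngII, 0.63 against WT AngII and 0.78 against WT saline over 6 genes. Sympathetic neuron markers differed in the same direction, with medians of 2.38 and 0.84 and 0 called. In both comparisons 9 of the 10 markers were positive, beside 6150 and 6660 of all 12645 tested genes. Their summed level was 4.87 to 1074 FPKM in KO AngII, with a median of 346, 10.3 to 178 in WT AngII, with a median of 24.7, and 9.54 to 574 in WT saline, with a median of 120.02. None of the 10 was at 0 throughout a group, and their part in the values of the redox lists was not tested. White adipocyte markers were positive for 10 of 10 in KO AngII against WT AngII and 9 of 10 in KO AngII against WT saline. In WT AngII against WT saline 2 of 10 were, beside 6648 of all tested genes. Brown adipocyte markers were positive for 8, 2 and 2 of 10 in the same order. Both lists had 0 called, and their part was not tested either. Aox1, aldehyde oxidase, averaged 6.10 ± 3.39 FPKM in KO AngII and 1.77 ± 0.943 in WT AngII, a difference of 1.29 (SE 0.44) with a limma p of 0.0101 and an adjusted p of 0.611. Nos3, endothelial nitric oxide synthase, averaged 23.5 ± 10.8 FPKM in WT AngII and 13.6 ± 12.6 in WT saline, with a limma p of 0.0572. Cyp1b1, a cytochrome, had the highest mean of the list, at 37.0 ± 13.3 FPKM in KO AngII, 48.3 ± 8.30 in WT AngII and 47.6 ± 12.8 in WT saline. In the remaining lists the smallest limma p belonged to Gpx4, the lipid peroxide reductase (0.160, with 262 ± 74.5 FPKM in KO AngII and 203 ± 63.0 in WT AngII), to Gsr, glutathione reductase (0.160, with 16.6 ± 3.33 FPKM in KO AngII and 14.4 ± 1.19 in WT saline), and to Atp7a, a copper exporter (0.251, with 6.48 ± 2.98 FPKM in KO AngII and 4.72 ± 0.639 in WT AngII).

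**Figure D5:**
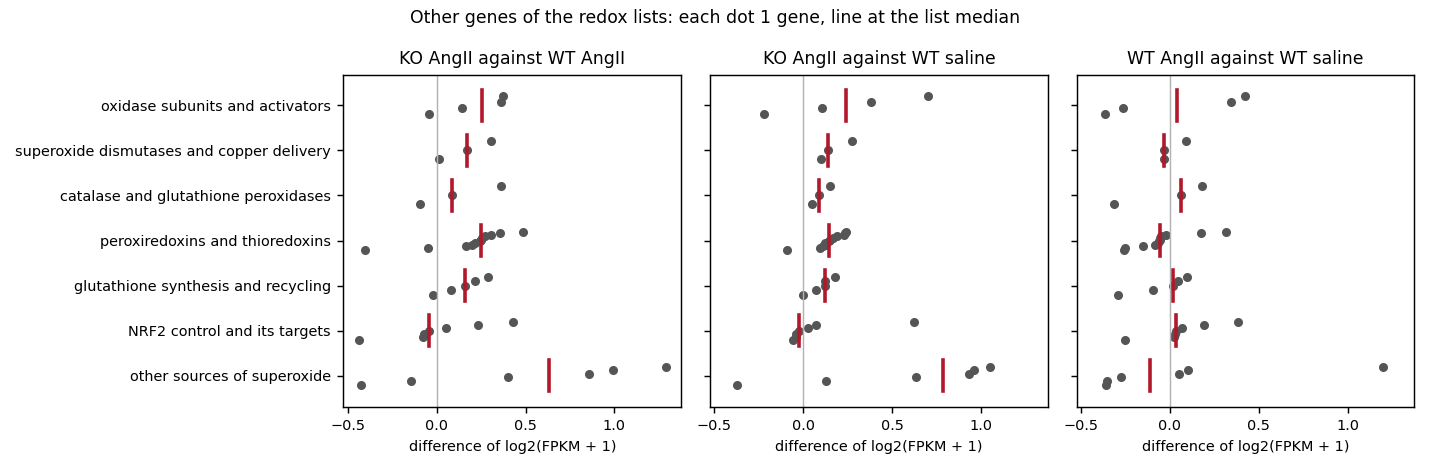
Difference of log2(FPKM + 1) (x axis, first group minus second) of the 40 other tested genes of the 7 redox lists (rows), in KO AngII against WT AngII, KO AngII against WT saline and WT AngII against WT saline; each dot is 1 gene and the red line the list median. Peroxiredoxins and thioredoxins lie mostly above 0 in both comparisons of KO AngII (10 of 12 and 11 of 12) and mostly below 0 in WT AngII against WT saline (2 of 12 above), with 0 genes called.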

How the data were processed

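RNA of mouse abdominal aorta was sequenced in 20 libraries, of which 15 in 3 groups of 5 were used. The deposited values, 1 per transcript, are FPKM by the authors, as their whole steps after multiplying by transcript length show, since the labels name no unit; the submitters' processing notes name bcl2fastq, FastQC, fastp and mm10, and for the aligner and quantifier the sources used here give no name. From the steps in the values a depth of 59.0 to 74.5 megareads was recovered, with 98.7% to 99.1% of values below 50 reads within 0.05 of a whole number. Transcripts were matched to GENCODE M21 and added up per gene, with an unlisted transcript at 0. Transcripts the authors assembled themselves carry no gene name and were left out. Of 14604 genes with a transcript in both the WT and the KO AngII tables, 12645 passed a filter of 1 FPKM on their mean over all 15 and were tested with limma 3.58.1 (trend and robust, R 4.3.3) on log2(FPKM + 1), all 15 libraries in 1 model, with Benjamini-Hochberg adjustment over all genes at 0.05. The pseudocount of 1 shrinks differences of low genes such as Cybb and Ncf1. The procedure was tested on simulated data. Intervals are at 95%. Correlations used 100000 permutations (SciPy 1.17.1).

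The 10 genes, the lists and the tests were chosen with earlier results of these data known. Named genes are the 10 and, per redox list, the gene with the highest mean FPKM and those with the smallest p per comparison, not all of which are reported here, and the 3 genes nearest to each of the 10. Alternatives changed the pseudocount (0.1), the filter, the handling of unlisted transcripts, the normalization, the weights, the covariates, the libraries in the fit and the options of limma, and left out each library in turn; leaving out WTAngII580 and WTAngII581 together was added after seeing the data.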

Additional observations from a re-analysis of the deposited data

Results flagged for a closer look

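In groups of 5, a library was picked out where its gap to the nearest other exceeded 0.71 of the group's range. For independent, normally distributed values, chance alone meets this rule in about 1 in 20 groups. Here 52 groups of FPKM values were examined and 8 met it. Gene sums and their own transcripts are both among these groups, so the count of 8 cannot be set against that rate. For Cyba, WTAngII580 was low at 31.6 FPKM, with the others at 47.0 to 50.1. For Nox4, KOAngII560 was high at 53.0 FPKM (others 15.6 to 25.0), and WTNS_369 was high at 167 FPKM (others 13.8 to 47.4). By transcript, WTNS_369 held 83.8 FPKM of Nox4-201 and 82.1 of Nox4-205, KOAngII560 held 22.98 of Nox4-202, and WTAngII568 held 4.51 of Nox4-204 and 7.02 of Nox4-207. Sod2 in KOAngII560 did not meet the rule, since KOAng_II402 stood high in the same group.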

How the results depend on the processing

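None of the 10 genes and none of the 40 other redox genes was called under any alternative run, and the lowest adjusted p of the 10 in limma over all of them was 0.156 in KO AngII against WT AngII, 0.235 in KO AngII against WT saline and 0.546 in WT AngII against WT saline. Of 590 alternative values of the 30 differences, 43 changed sign, 27 of them with 1 library left out, and all had an adjusted p above the threshold; the cause was not tested.

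Over all genes, the number called was 0 to 7 in KO AngII against WT AngII, 7 to 15 in KO AngII against WT saline and 0 to 1 in WT AngII against WT saline with each library left out in turn. Without WTAngII580 and WTAngII581, 15 genes were called in KO AngII against WT AngII, where the full set gave 0. In KO AngII against WT saline, sample quality weights gave 30 and the 3 marker means as covariates gave 1, where the main count was 13, of which 7 were intestinal markers.

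With the 3 marker means as covariates, the differences in KO AngII against WT AngII were 0.10 for Cyba, -0.10 for Sod1, -0.22 for Cat and -0.54 for Gpx3, and in WT AngII against WT saline -0.00698 for Cyba, -0.17 for Nox4, 0.0180 for Sod1, 0.58 for Sod2, -0.00730 for Sod3, 0.0358 for Cat and 0.27 for Gpx3, all of changed sign. Sample quality weights turned Cybb to -0.0540 in KO AngII against WT AngII, and Cyba to -0.0661, Sod1 to 0.11 and Cat to 0.16 in KO AngII against WT saline, and Cybb was -0.0173 in the first of these without WTAngII580 and WTAngII581.

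With libraries left out in turn, 11 of the 30 differences changed sign, 16 more moved by over 1.5 times with the sign kept, and 3 did neither. Those that changed sign ranged, in KO AngII against WT AngII, from -0.12 to 0.20 for Cybb, -0.17 to 0.0173 for Ncf1 and -0.18 to 0.37 for Gpx3. In KO AngII against WT saline they ranged from -0.00867 to 0.19 for Cyba, -0.86 to 0.0165 for Nox4, -0.15 to 0.0736 for Sod1, -0.23 to 0.00998 for Sod3, -0.35 to 0.10 for Cat and -0.0274 to 0.11 for Gpx1. In WT AngII against WT saline they ranged from -0.0410 to 0.85 for Nox4 and -0.34 to 0.13 for Sod2. Of the 30 relations with markers, that of Ncf1 with smooth muscle markers changed sign within groups (r = -0.0503). No paired analysis was possible because the groups share no library numbers. By depth, Nox4 rests on at least 3206 reads in each library, Cybb and Ncf1 on as few as 414 and 455, and Sod2 on as few as 89.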
